A study of Mus musculus with 12 samples.

Results

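The genes described here are 34 genes listed as targets of the transcription factor p53 (with its own gene, Trp53), without Cdkn1a, and followed through microglia of irradiated and sham-treated mice. Of these, 31 had a probe set that carries their symbol alone in the array annotation, out of 18193 genes with such a probe set. Each gene was read from its brightest probe set, by the mean of the 12 arrays, and counted as detected when the log2 value of that probe set exceeded 5 in 3 or more arrays. By this rule 24 members were detected, out of 9120 detected genes in all. Of the 24, 23 were above 5 in all 12 arrays, so their detection did not depend on 1 group. The exception was Xpc, which lay above 5 in 6 arrays, 5 of them sham. Bbc3, Fas, Gadd45a, Phlda3, Plk2, Tnfrsf10b and Eda2r were not detected, and Bax, Gdf15 and Trp53 itself were not analysed here for want of a named probe set.

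Female mice of the inbred strains Balb/c and C57BL/6 were treated at 6.5 weeks of age and analysed at 10.5 weeks, 1 month later. Irradiated mice of each strain received a single X-ray dose of 10 Gy to a field of 1 cm over the forebrain under ketamine and xylazine, and sham-irradiated mice of the same strain served as controls. RNA came from CD11b+ cells of the hippocampus sorted by flow cytometry, 5000 to 10000 cells per animal, so each of the 12 Affymetrix arrays held 1 mouse. The 4 groups were Balb/c irradiated, Balb/c sham, C57BL/6 irradiated and C57BL/6 sham, with 3 arrays each, and this number limits the precision. CD11b marks myeloid cells in general, so sorted samples may include macrophages and monocytes as well as microglia. Markers of astrocytes, oligodendrocytes and other cell types were also detected, as given below. In such bulk samples a change in the share of a cell type and a change in RNA per cell cannot be told apart.

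The protein p53 is held at a low level by the ubiquitin ligase MDM2 and is stabilised when kinases such as ATM sense DNA breaks. It then binds response elements near its target genes, which halt the cell cycle, start apoptosis, aid DNA repair and limit growth signalling, and which include Mdm2 itself as a negative feedback. Ionising radiation is the classical trigger of this programme, best known from the first hours after exposure. The question addressed by the comparisons was which of its genes differ in microglia a month later, in either strain.

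Promoter sequence was available for 27 of the 34 members, as the RefSeq window (mouse build GRCm38.p6, the C57BL/6J reference) from 250 bases before to 50 bases after the transcription start. The p53 response element is a pair of half-sites of the p53 consensus, which is the same on both strands, and each window was searched for it. An exact half-site was present in at least one window of 11 members (40.7%), against 9.55% of 27025 genes with a window. A pair of half-sites, with a spacer of at most 3 bases and at most 2 mismatches outside the core, was present for Rps27l, Bax and Sesn1, or 11.1% of the members, against 0.714% of genes. The members were listed because they are known targets of p53, so these shares describe the list and no test was made. No window was available for Trp53inp1, Pmaip1, Zmat3, Tnfrsf10b, Xpc, Ddb2 and Perp.

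The following stretches are shown because 3 of these genes, Rps27l, Ccng1 and Mdm2, rose after irradiation and Sesn1, which holds a full pair, did not pass the test. Each gives 250 bases in the direction of transcription, 5′ to 3′, with exact half-sites, and both half-sites of a pair, in capitals. The stretch of Rps27l lies at chr9:66946163-66946412 on the plus strand, and that of Ccng1 at chr11:40755287-40755536 on the minus strand. The stretch of Mdm2 lies at chr10:117710759-117711008 on the minus strand, and that of Sesn1 at chr10:41887189-41887438 on the plus strand.
Rps27l: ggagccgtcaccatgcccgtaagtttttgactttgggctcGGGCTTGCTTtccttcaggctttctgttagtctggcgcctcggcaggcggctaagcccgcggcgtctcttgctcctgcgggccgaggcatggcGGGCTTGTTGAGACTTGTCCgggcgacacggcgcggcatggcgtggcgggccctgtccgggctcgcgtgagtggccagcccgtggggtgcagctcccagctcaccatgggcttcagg
Ccng1: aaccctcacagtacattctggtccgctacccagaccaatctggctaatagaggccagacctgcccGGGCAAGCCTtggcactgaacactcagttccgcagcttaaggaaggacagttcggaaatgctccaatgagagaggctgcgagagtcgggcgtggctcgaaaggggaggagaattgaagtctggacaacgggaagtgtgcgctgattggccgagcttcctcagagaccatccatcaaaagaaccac
Mdm2: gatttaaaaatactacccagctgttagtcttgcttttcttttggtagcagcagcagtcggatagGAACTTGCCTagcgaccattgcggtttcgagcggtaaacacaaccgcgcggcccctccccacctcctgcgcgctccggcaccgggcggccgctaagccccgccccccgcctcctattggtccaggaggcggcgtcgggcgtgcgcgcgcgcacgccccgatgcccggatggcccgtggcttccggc
Sesn1: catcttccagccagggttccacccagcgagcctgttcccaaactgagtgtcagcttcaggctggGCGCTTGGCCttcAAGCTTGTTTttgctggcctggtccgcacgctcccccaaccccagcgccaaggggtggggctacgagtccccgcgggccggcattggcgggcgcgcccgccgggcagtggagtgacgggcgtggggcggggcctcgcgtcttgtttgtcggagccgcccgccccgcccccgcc
The pair in Rps27l has 1 mismatch and no bases between its half-sites and begins 117 bases before the start, and a further exact half-site lies at position -210 from the start. The pair in Sesn1 has 2 mismatches and a spacer of 3 bases and begins 186 bases before the start. Rps27l and Sesn1 each have another window, at chr9:66945836-66946135 and chr10:41810324-41810623, that held no exact half-site and no pair. Both of these lie before the stretches shown, so the pairs lie after those other starts. Single exact half-sites begin 185 bases before the start in Ccng1 and 186 bases before it in Mdm2. Among the 12 members that rose in the average over strains, 5 of the 8 with a window held an exact half-site (Aen, Ccng1, Mdm2, Polk and Rps27l). Among the other 12 detected members, 3 of the 10 with a window did (Ei24, Ppm1d and Sesn1). A match of letters is not a measured binding site.

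All 11 measured microglial markers were above 5 in every array, with array means of their log2 levels from 13 to 13.15 in Balb/c irradiated, 13.23 to 13.27 in Balb/c sham, 13.16 to 13.33 in C57BL/6 irradiated and 13.35 to 13.41 in C57BL/6 sham arrays. The mean log2 level of P2ry12, a purine receptor of resting microglia, was 14.06 in Balb/c irradiated, 14.18 in Balb/c sham, 13.96 in C57BL/6 irradiated and 13.94 in C57BL/6 sham arrays. In the average over strains 9 of the 11 markers had a negative difference and 2 were called lower after irradiation (18.2%, against 8.15% of all tested genes), while none was called in either strain alone. These were Itgam, which encodes the sort marker CD11b, at -0.84 (limma, adjusted p = 0.0237), and the lectin gene Siglech, at -0.38 (adjusted p = 0.0184). Their part in the differences of the p53 targets was not tested. Over the 31 measured p53 targets the mean log2 level of an array ran from 7.90 to 8.01 in Balb/c irradiated arrays, against 7.38 to 7.46 in Balb/c sham arrays. In C57BL/6 mice it ran from 7.82 to 7.91 in irradiated arrays, against 7.29 to 7.47 in sham arrays.

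A gene was called when limma's moderated test, fitted over all 12 arrays and adjusted by Benjamini and Hochberg over the 9120 detected genes, gave an adjusted p under 0.05. In Balb/c mice 9 of the 24 detected members were higher after irradiation and 0 were lower, which is 37.5% higher where 3.26% of all tested genes were called higher and 2.89% lower. In C57BL/6 mice 7 of 24 were higher and 1 was lower, or 29.2% and 4.17%, against 2.21% and 1.46% of all tested genes. With both strains averaged, 12 of 24 were higher and 2 were lower, or 50% and 8.33%, against 7.72% and 8.15% of all tested genes. The share of members called lower in the average was thus near that of all tested genes. All 7 members higher in C57BL/6 were among the 9 higher in Balb/c (77.8% of these). Over all tested genes, 95 were called higher in both strains, which is 32% of the Balb/c calls and 47% of the C57BL/6 calls. The 2 comparisons share no arrays but share the fit and its estimate of each gene's spread, so they are not separate tests. These 7 were Ccng1, Trp53inp1, Rps27l, Zmat3, Aen, Polk and Dcxr. The median log2 difference of the members was 0.63 in Balb/c, 0.37 in C57BL/6 and 0.57 in the average, where the median of all tested genes was -0.04, -0.04 and -0.05.

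The arrays differed between treatments in RNA measures as well. The 18S ribosomal control signal ran from 10.48 to 11.60 in Balb/c irradiated arrays, against 11.93 to 12.32 in Balb/c sham arrays, and from 11.55 to 11.77 in C57BL/6 irradiated arrays, against 12.05 to 12.31 in C57BL/6 sham arrays. Every irradiated array was thus below every sham array of its strain. With this signal as a covariate, chosen after it was seen, 3 members were called in Balb/c, 5 in C57BL/6 and 6 in the average. The average calls that ended with it were those of Mdm2, Mdm4, Pmaip1, Perp, Polk, Btg2, Ak1 and Tgfa, with adjusted p from 0.0768 for Tgfa to 0.317 for Mdm4. The mean difference between the 3′ and 5′ control probe sets of Actb and Gapdh stood apart in Balb/c irradiated replicate 2, at 4.82, where the other irradiated arrays ran from 3.55 to 4.21 and the sham arrays from 3.50 to 3.81. Without that array 6 members were called in Balb/c. The part of these measures in the results was not tested beyond these refits, and the 18S signal cannot be told apart from irradiation.

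**Figure D1:**
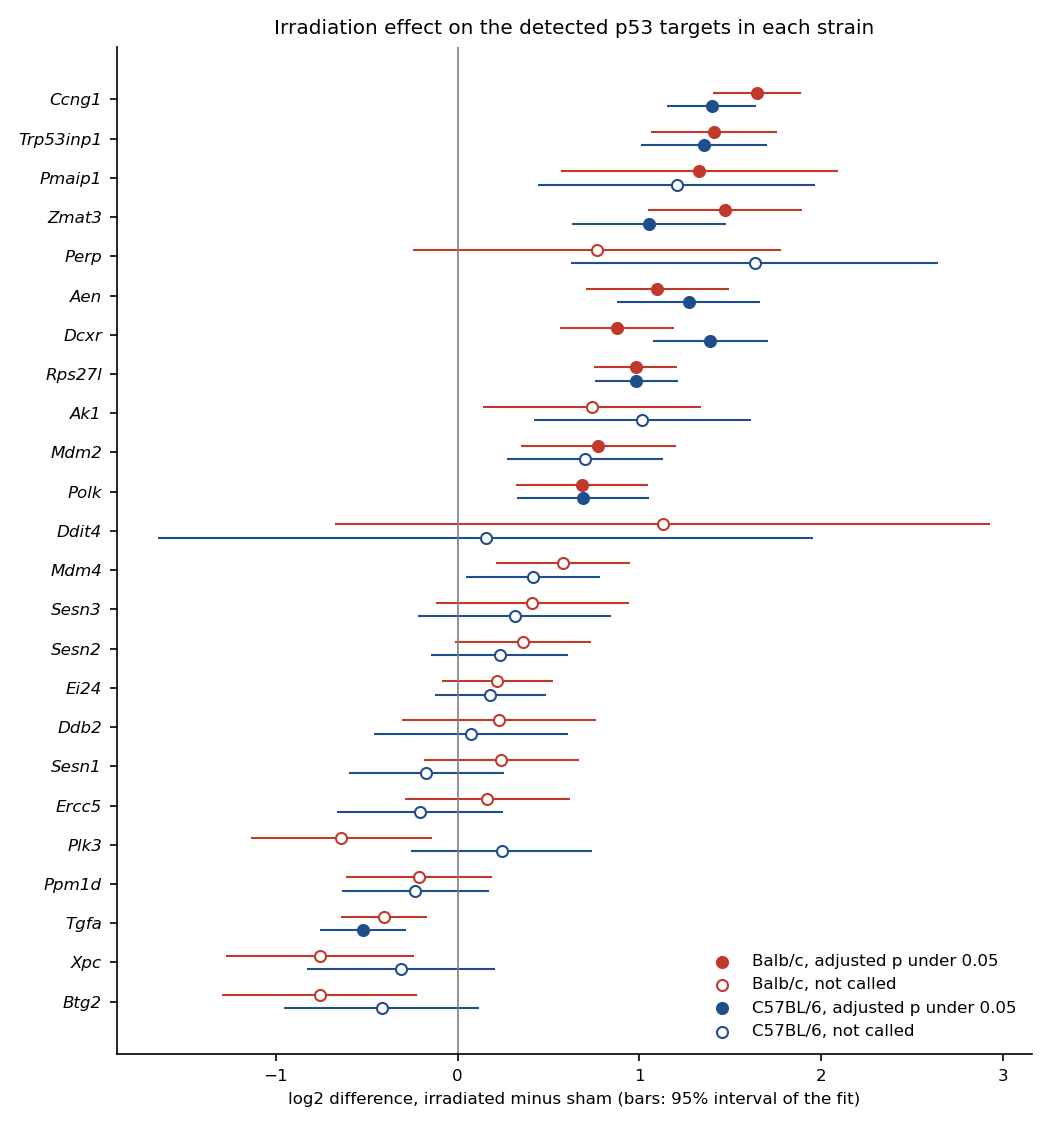
Log2 difference (irradiated minus sham) of the 24 detected p53 targets in Balb/c and C57BL/6 mice, with 95% intervals of the limma fit; filled points have an adjusted p under 0.05. Most members lie to the right of 0 in both strains, and Ccng1, Trp53inp1, Zmat3, Aen, Dcxr, Rps27l and Polk have filled points in both.

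The list's 5 detected genes that act back on p53 or its turnover included 4 that rose in the average over strains. The clearest was Ccng1, cyclin G1, a direct target whose product guides phosphatase PP2A to MDM2. Ccng1 read 14.17, 14.18 and 13.93 in the Balb/c irradiated arrays, against 12.50, 12.29 and 12.54 in the Balb/c sham arrays. In C57BL/6 the arrays read 13.76, 13.77 and 13.69 after irradiation, against 12.30, 12.32 and 12.42 in sham mice. The groups lay more than 1 log2 unit apart in both strains, and Ccng1 was already among the brightest members in sham mice. The difference was 1.65 ± 0.11 in Balb/c (SE, adjusted p = 4.55e-05, 3.14-fold) and 1.40 ± 0.11 in C57BL/6 (adjusted p = 0.000186, 2.63-fold).

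Trp53inp1 encodes a stress-induced nuclear protein that favours the phosphorylation of p53. Its log2 values were 12.54, 12.94 and 13.11 in Balb/c irradiated arrays, against 11.56, 11.35 and 11.45 in Balb/c sham arrays. For C57BL/6 they were 12.35, 12.58 and 12.29 in irradiated arrays, against 11.02, 10.90 and 11.23 in sham arrays. No irradiated array overlapped a sham array in either strain. Trp53inp1 rose by 1.41 ± 0.16 in Balb/c (adjusted p = 0.00124, 2.66-fold) and by 1.36 ± 0.16 in C57BL/6 (adjusted p = 0.00187, 2.56-fold).

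The negative regulators Mdm2, the ubiquitin ligase for p53, and Mdm4, its partner that masks the p53 activation domain, showed smaller differences. Mdm2 read 8.58, 8.43 and 8.71 in Balb/c irradiated arrays, against 7.92, 7.75 and 7.73 in Balb/c sham arrays. It read 8.10, 8.28 and 8.59 in C57BL/6 irradiated arrays, against 7.90, 7.80 and 7.17 in C57BL/6 sham arrays. The groups did not overlap in either strain, with C57BL/6 sham replicate 3 well below its fellows. The difference was 0.77 ± 0.19 in Balb/c (adjusted p = 0.0415), 0.70 ± 0.19 in C57BL/6 (adjusted p = 0.0729) and 0.74 ± 0.14 on average (adjusted p = 0.00629, 1.67-fold). The Balb/c call of Mdm2 ended when any of 8 arrays was left out, up to an adjusted p of 0.124 without Balb/c irradiated replicate 3, while the call in the average held each time. The Balb/c call also ended without the detection filter (0.112) and with the replicate number as a block (0.0626). It ended too with the 3′ and 5′ difference as a covariate (0.116) and with the 18S covariate (0.328).

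Mdm4 read 9.31, 9.61 and 9.55 in Balb/c irradiated arrays, against 9.07, 8.84 and 8.82 in Balb/c sham arrays. In C57BL/6 mice it read 8.98, 9.56 and 9.29 after irradiation, against 8.71, 9.10 and 8.76 in sham mice. The groups were apart in Balb/c and overlapped in C57BL/6. Mdm4 was called in the average alone, at 0.50 ± 0.12 (adjusted p = 0.0187, 1.41-fold), and this call ended without the detection filter (adjusted p = 0.051), with the 3′ and 5′ covariate (0.0618) and with the 18S covariate (0.317). Ppm1d, the phosphatase WIP1 that switches p53 and its kinases off, differed by -0.22 ± 0.13 on average (adjusted p = 0.263), with group means between 8.12 and 8.52.

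**Figure D2:**
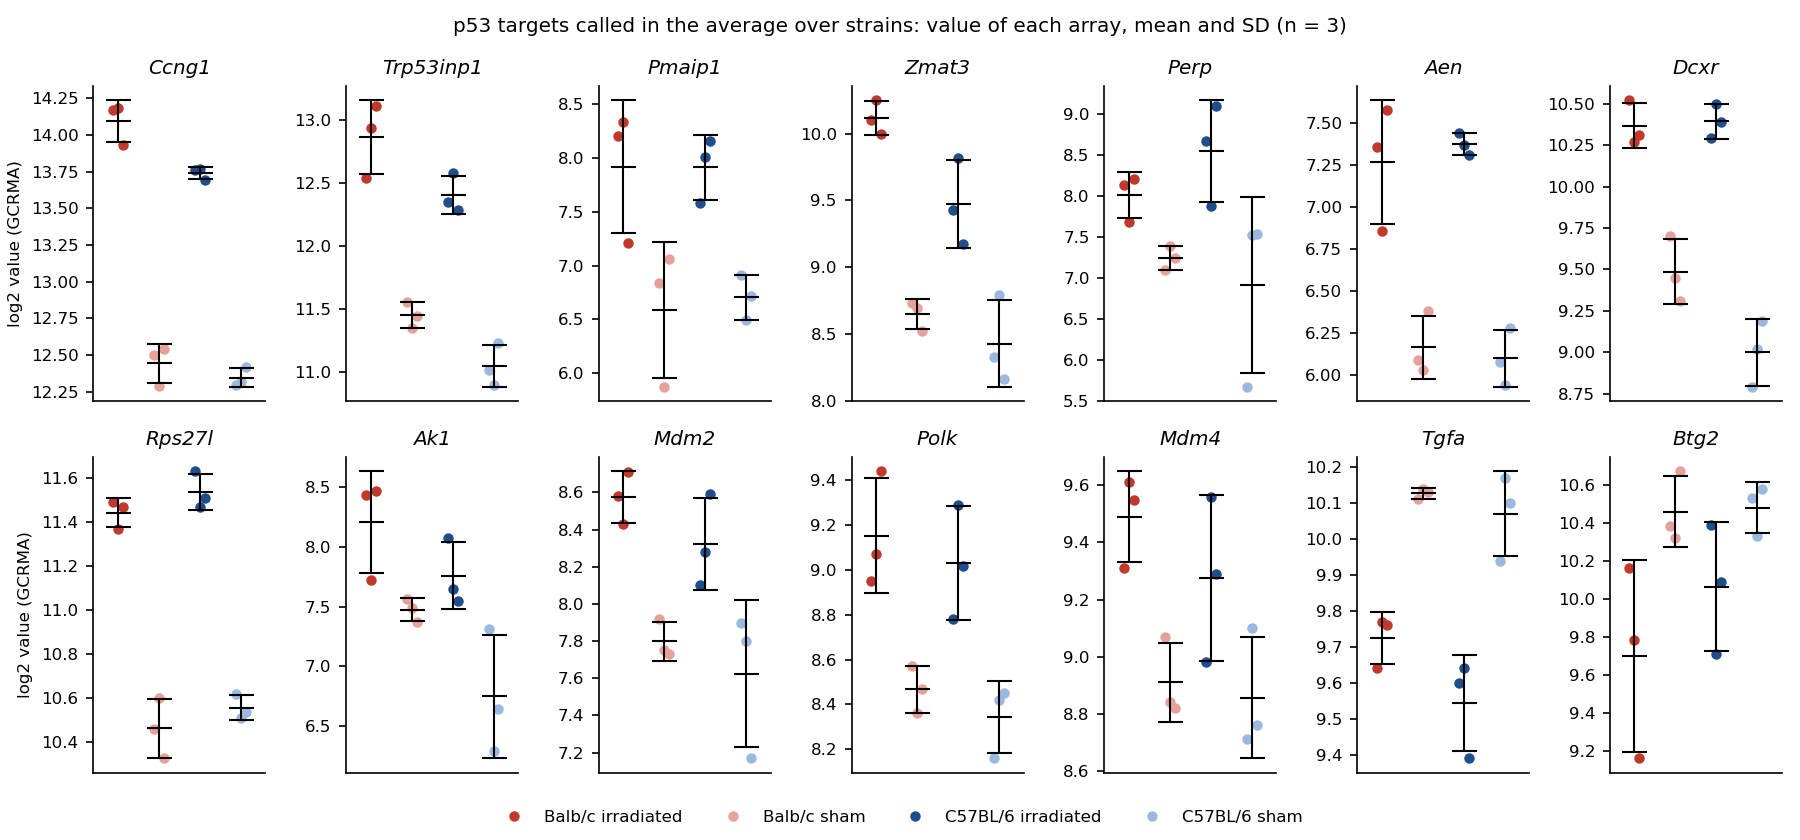
Log2 value (GCRMA) of each array for the 14 members called in the average over strains, by group, with mean and SD (n = 3). For Ccng1, Trp53inp1, Rps27l, Aen, Zmat3 and Dcxr the irradiated points lie clear of the sham points in both strains, and Tgfa and Btg2 are the only panels with irradiated means below sham means.

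Of the 5 detected members that serve cell death, 4 rose in the average. Aen, an exonuclease that degrades DNA during apoptosis, read 7.36, 6.86 and 7.58 in Balb/c irradiated arrays, against 6.09, 6.03 and 6.38 in Balb/c sham arrays. In C57BL/6 irradiated arrays it read 7.44, 7.37 and 7.31, against 6.08, 5.94 and 6.28 in C57BL/6 sham arrays. The groups were apart in both strains. Aen rose by 1.10 ± 0.18 in Balb/c (adjusted p = 0.00678, 2.14-fold) and by 1.27 ± 0.18 in C57BL/6 (adjusted p = 0.00484, 2.41-fold). Zmat3, an RNA-binding zinc finger protein that regulates splicing, showed a rise of similar size. It read 10.10, 10.25 and 10.00 in Balb/c irradiated arrays, against 8.73, 8.69 and 8.52 in Balb/c sham arrays, and 9.43, 9.82 and 9.17 in C57BL/6 irradiated arrays, against 8.33, 8.79 and 8.16 in C57BL/6 sham arrays. Here too the groups did not overlap. The difference was 1.47 ± 0.19 in Balb/c (adjusted p = 0.00227, 2.77-fold) and 1.05 ± 0.19 in C57BL/6 (adjusted p = 0.0172, 2.07-fold). Without C57BL/6 sham replicate 1 the C57BL/6 call of Zmat3 ended (adjusted p = 0.0508).

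Pmaip1 encodes NOXA, a BH3-only protein that neutralises the survival factor MCL1. Its arrays read 8.21, 8.34 and 7.21 in Balb/c irradiated mice, against 6.84, 5.87 and 7.06 in Balb/c sham mice. For C57BL/6 they read 7.58, 8.01 and 8.16 after irradiation, against 6.91, 6.49 and 6.72 in sham mice. The groups were apart in both strains, by a narrow margin in Balb/c, where irradiated replicate 3 lay close to sham replicate 3. Pmaip1 differed by 1.33 ± 0.35 in Balb/c (adjusted p = 0.0477), by 1.21 ± 0.35 in C57BL/6 (adjusted p = 0.0809) and by 1.27 ± 0.24 on average (adjusted p = 0.00745, 2.41-fold). The Balb/c call ended when any of 10 arrays was left out, up to an adjusted p of 0.145 without Balb/c sham replicate 2. It also ended without the detection filter (0.149), with all probe sets tested (0.053) and with only the groups compared in the fit (0.119). The replicate number as a block (0.0674), the 3′ and 5′ covariate (0.271) and the 18S covariate (0.545) ended it too.

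Perp, a membrane protein of desmosomes linked to p53-dependent apoptosis, was called in the average only. It read 8.13, 7.69 and 8.21 in Balb/c irradiated arrays, against 7.10, 7.39 and 7.24 in Balb/c sham arrays. In C57BL/6 mice it read 8.67, 7.88 and 9.10 in irradiated arrays, against 5.67, 7.53 and 7.54 in sham arrays. The groups did not overlap, but C57BL/6 sham replicate 1 lay far below the other sham arrays. The average difference was 1.20 ± 0.32 (adjusted p = 0.0313), and it lost its call without any of 7 arrays, up to an adjusted p of 0.0732 without C57BL/6 irradiated replicate 3. It also ended without the detection filter (0.106) and with the 3′ and 5′ covariate (0.0576). In C57BL/6 alone the difference of 1.63 (adjusted p = 0.0763) became 1.01 without sham replicate 1. Ei24, a protein of the endoplasmic reticulum, differed by 0.20 ± 0.10 on average (adjusted p = 0.19), with group means from 10.62 to 10.86.

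The list holds 4 detected genes of DNA repair, and 1 of them rose. Polk, the translesion DNA polymerase kappa, read 8.95, 9.07 and 9.44 in Balb/c irradiated arrays, against 8.57, 8.36 and 8.47 in Balb/c sham arrays. It read 8.78, 9.29 and 9.02 in C57BL/6 irradiated arrays, against 8.16, 8.42 and 8.45 in C57BL/6 sham arrays. All irradiated arrays were above all sham arrays within each strain. The rise was 0.69 ± 0.17 in Balb/c (adjusted p = 0.0368) and 0.69 ± 0.17 in C57BL/6 (adjusted p = 0.0465), 1.61-fold in each. The C57BL/6 call ended without any of 10 arrays, up to an adjusted p of 0.14 without C57BL/6 irradiated replicate 3. The Balb/c call ended without any of 5 of the 6 Balb/c arrays, the exception being irradiated replicate 1, up to 0.122 without sham replicate 2. The C57BL/6 call of Polk also ended without the detection filter, with all probe sets tested, and with centring, quantile normalization or array weights. It ended too with only the groups compared in the fit, with the 3′ and 5′ covariate and with the 18S covariate. In Balb/c the call ended without the filter, with only the groups compared and with either covariate. The nucleotide excision repair genes did not pass the test: Xpc and Ddb2, which recognise damage, differed on average by -0.53 ± 0.17 (adjusted p = 0.052) and 0.15 (adjusted p = 0.578), and the endonuclease gene Ercc5 by -0.02 (adjusted p = 0.933).

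Rps27l, a ribosomal protein close to Rps27 in sequence, had the smallest spread among the members that rose. It read 11.49, 11.37 and 11.47 in Balb/c irradiated arrays, against 10.46, 10.60 and 10.33 in Balb/c sham arrays. In C57BL/6 mice it read 11.63, 11.47 and 11.51 in irradiated arrays, against 10.62, 10.51 and 10.54 in sham arrays. The groups were clearly apart in each strain. Rps27l rose by 0.98 ± 0.10 in Balb/c (adjusted p = 0.000932, 1.97-fold) and by 0.98 ± 0.10 in C57BL/6 (adjusted p = 0.00113, 1.98-fold). Its 3 detected probe sets gave differences from 0.92 to 1.02. They may cross-react with near-identical ribosomal protein transcripts, and the signal was not resolved between them here.

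Both detected genes of growth and cell cycle restraint, Btg2 and Plk3, had no rise that passed the test. Btg2, an antiproliferative factor that promotes mRNA deadenylation, was lower in the average. It read 10.16, 9.78 and 9.16 in Balb/c irradiated arrays, against 10.38, 10.32 and 10.67 in Balb/c sham arrays, and 10.39, 9.71 and 10.09 in C57BL/6 irradiated arrays, against 10.53, 10.33 and 10.58 in C57BL/6 sham arrays. The groups overlapped in C57BL/6 but not in Balb/c. The average fell by 0.59 on the log2 scale, SE 0.17 (adjusted p = 0.042), and this call ended without any of 10 arrays, up to an adjusted p of 0.0881 without Balb/c sham replicate 3. It also ended without the detection filter (0.117), with array weights (0.0524) and with the 3′ and 5′ covariate (0.107). A second detected probe set of Btg2 had a difference of -0.86 ± 0.16 in a fit of all probe sets (adjusted p = 0.00661). Plk3, a polo-like kinase, differed by -0.64 in Balb/c (adjusted p = 0.121) and by 0.24 in C57BL/6 (adjusted p = 0.565). Its Balb/c irradiated arrays lay below all Balb/c sham arrays, while those of C57BL/6 overlapped.

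Of the 6 detected genes of stress metabolism and mTOR restraint (Sesn1, Sesn2, Sesn3, Ddit4, Ak1 and Dcxr), 2 rose in the average. Dcxr, dicarbonyl and L-xylulose reductase, read 10.52, 10.27 and 10.31 in Balb/c irradiated arrays, against 9.70, 9.45 and 9.31 in Balb/c sham arrays. It read 10.29, 10.50 and 10.39 in C57BL/6 irradiated arrays, against 8.79, 9.02 and 9.19 in C57BL/6 sham arrays. The irradiated arrays of both strains overlapped with each other, and within each strain irradiated and sham arrays did not. Dcxr rose by 0.88 ± 0.14 in Balb/c (adjusted p = 0.00671, 1.84-fold) and by 1.39 ± 0.14 in C57BL/6 (adjusted p = 0.00106, 2.62-fold). The Balb/c call of Dcxr ended with the 18S covariate (0.127). Ak1, adenylate kinase 1, which balances the cell's adenine nucleotides, read 8.44, 7.72 and 8.47 in Balb/c irradiated arrays, against 7.56, 7.49 and 7.37 in Balb/c sham arrays. In C57BL/6 it read 8.08, 7.65 and 7.55 after irradiation, against 7.31, 6.29 and 6.64 in sham mice. The groups did not overlap, though C57BL/6 sham replicate 1 stood close to the lowest irradiated array. Ak1 was called in the average at 0.88 ± 0.19 (adjusted p = 0.0133, 1.84-fold), and this call ended without the detection filter (0.0517) and with the 18S covariate (0.0863). The sestrins restrain mTORC1 signalling: Sesn1, the brightest of them with group means from 12.86 to 13.19, differed by 0.03 on average (adjusted p = 0.882), Sesn2 by 0.30 (adjusted p = 0.121) and Sesn3 by 0.36 (adjusted p = 0.17). Ddit4, REDD1, which also inhibits mTORC1, spread most among replicates. Its C57BL/6 sham arrays ran from 6.17 to 10.03, and the average difference was 0.64 ± 0.58 (adjusted p = 0.477).

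Tgfa, a ligand of the EGF receptor, moved the other way. It read 9.64, 9.77 and 9.76 in Balb/c irradiated arrays, against 10.11, 10.14 and 10.13 in Balb/c sham arrays. It read 9.60, 9.64 and 9.39 in C57BL/6 irradiated arrays, against 9.94, 10.17 and 10.10 in C57BL/6 sham arrays. Every irradiated array was below every sham array of its strain. Tgfa fell by 0.52 ± 0.11 on the log2 scale in C57BL/6 (adjusted p = 0.0277) and by 0.46 ± 0.08 on average (adjusted p = 0.00337), and the Balb/c difference of -0.40 had an adjusted p of 0.0516. The C57BL/6 call ended without C57BL/6 sham replicates 2 or 3 or irradiated replicates 1 or 3, up to an adjusted p of 0.112.

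By arrays alone, 11 of the 24 detected members had every irradiated array above every sham array in both strains, a separation that 4.7% of all tested genes showed. In Balb/c it was 15 of 24 members against 12.8% of genes, and in C57BL/6 11 of 24 members against 11.4% of genes. The opposite separation, every irradiated array below every sham array, was seen in Balb/c for Xpc, Btg2, Plk3 and Tgfa. In C57BL/6 it was seen for Tgfa alone. The share of all tested genes with this opposite separation is not given here.

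Among the 7 members that were not detected, only Plk2 and Phlda3 exceeded 5 in any array. Plk2, a polo-like kinase, exceeded 5 in 2 arrays, Balb/c irradiated replicate 1 at 5.15 and C57BL/6 irradiated replicate 3 at 5.17. Phlda3, a protein that competes with AKT for membrane lipids, exceeded it in 1 array, Balb/c irradiated replicate 3 at 5.50, and was between 2.98 and 3.74 elsewhere. Just inside the limit, Xpc had group means of 4.62 in Balb/c irradiated, 5.37 in Balb/c sham, 4.76 in C57BL/6 irradiated and 5.07 in C57BL/6 sham arrays. The receptor gene Eda2r ran from 3.25 to 4.58 in Balb/c irradiated arrays, against 2.30 to 2.33 in Balb/c sham arrays, and from 2.40 to 3.69 in C57BL/6 irradiated arrays, against 2.25 to 2.30 in C57BL/6 sham arrays. Bbc3, which encodes the BH3-only protein PUMA, ran from 3.65 to 4.70 in Balb/c irradiated arrays, against 3.04 to 3.46 in Balb/c sham arrays. In C57BL/6 it ran from 3.85 to 3.99 after irradiation, against 2.88 to 3.65 in sham mice. The death receptor gene Fas had group means from 2.68 to 3.30. The growth arrest gene Gadd45a ranged over arrays from 2.35 to 2.65, and Tnfrsf10b, the TRAIL receptor gene, was at 2.23 throughout, the lowest value in the table. None of the 7 was tested in the main fit.

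**Figure D3:**
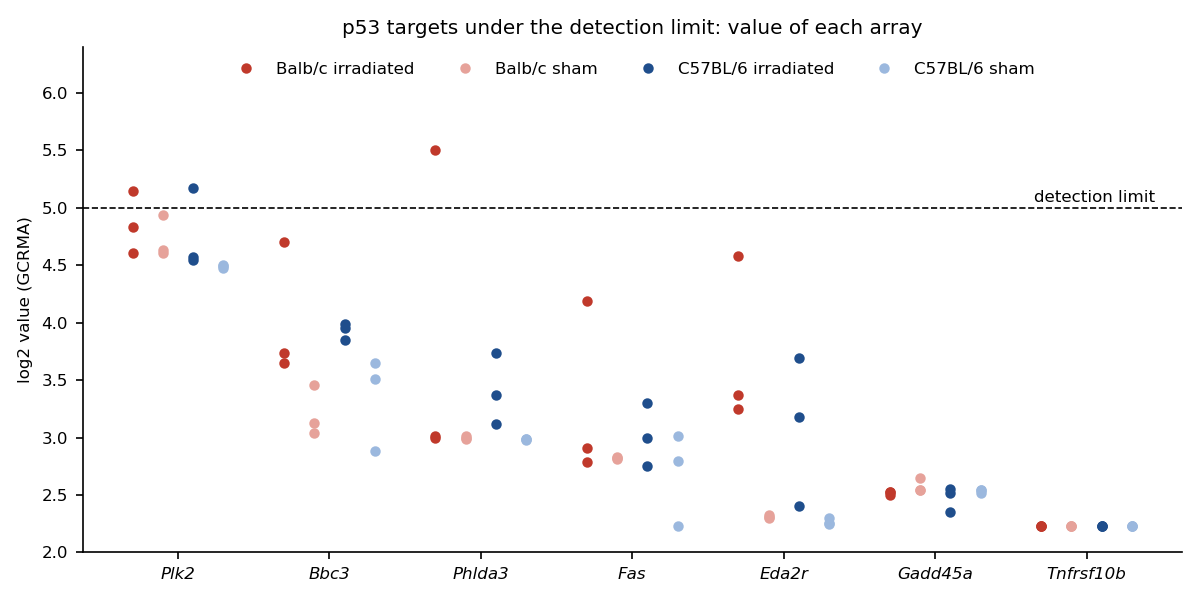
Log2 value (GCRMA) of each array for the 7 undetected members, by group, with the detection limit of 5 as a dashed line. Irradiated arrays of Eda2r and Bbc3 lie above the sham arrays of their strain, but all values of these genes stay below 5.

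Agreement among probe sets could be examined for 8 members with more than 1 detected probe set, and 5 of them kept one direction in the average. The dimmer probe sets of Ccng1 showed larger differences than the brightest, 2.32 and 2.66 in Balb/c and 2.37 and 3.29 in C57BL/6. For Mdm4 the second probe set gave 0.31 in Balb/c and 0.60 in C57BL/6, with an average of 0.45 (adjusted p = 0.0875 in the fit of all probe sets). Between strains in sham mice, the dimmer probe set of Mdm4 was higher in Balb/c by 0.99 ± 0.23 (adjusted p = 0.0185) and that of Btg2 by 0.82 ± 0.22 (adjusted p = 0.0413), whereas the brightest ones in the same fit differed by 0.05 (adjusted p = 0.906) and -0.02 (adjusted p = 0.972). For Ercc5, Ddb2, Sesn1 and Ppm1d no second probe set was called for irradiation.

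**Figure D4:**
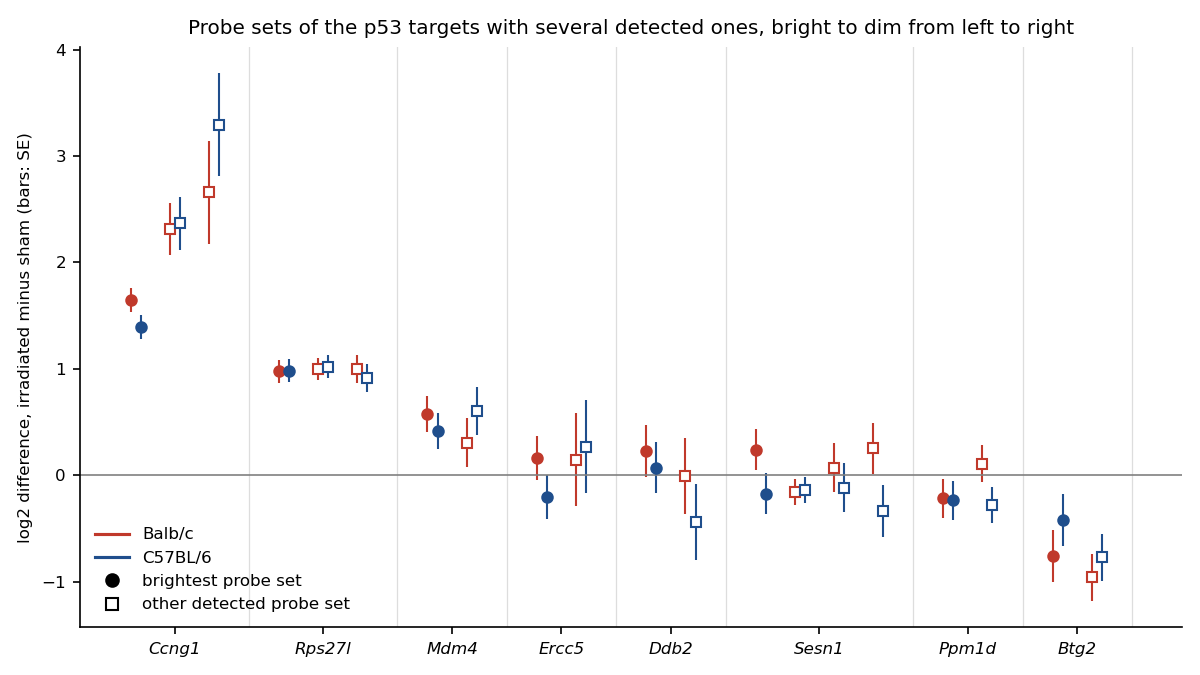
Log2 difference (irradiated minus sham, bars are SE) of each detected probe set of the 8 members with several, in Balb/c and C57BL/6. The probe sets of Rps27l coincide near 1, whereas those of Ccng1 run from 1.40 to 3.29.

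The strains were compared next. No member was called for the difference of the irradiation effect, where 0.0768% of all tested genes were called, and 2 members had an unadjusted p under 0.05, against 8.06% of all tested genes. These were Plk3, at -0.88 (95% interval -1.59 to -0.18, adjusted p = 0.558), and Dcxr, at -0.51 (-0.96 to -0.07). For 22 of the 24 members the interval of the difference included 0, with half-widths from 0.32 to 2.55 and a median of 0.60, so that the strains may still differ by such amounts. The interval was narrowest for Rps27l, whose difference was 0.00 (-0.33 to 0.32), and that of Ccng1 was 0.25 (-0.09 to 0.60). Of the 12 members that rose, 6 had the larger difference in Balb/c.

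Read from the brightest probe sets, no member was called between the strains in sham or in irradiated mice. In sham mice 3 members had an unadjusted p under 0.05, where 22.8% of all tested genes did and 10.5% were called. The smallest adjusted p was 0.0548, for Dcxr, with 9.49 in Balb/c sham against 9.0 in C57BL/6 sham arrays (difference 0.49, 0.17 to 0.80). In irradiated mice 4 members did (Ccng1, Trp53inp1, Zmat3 and Plk3), where 22.5% of all tested genes did and 8.97% were called. The smallest adjusted p was 0.0663, for Zmat3, with 10.12 in Balb/c irradiated against 9.48 in C57BL/6 irradiated arrays (difference 0.64, 0.22 to 1.07). Same-numbered irradiated arrays of the strains correlated in their deviations by 0.217, 0.447 and 0.323, and with the replicate number as a block 2 members were called. These were Zmat3, at 0.64 (adjusted p = 0.0168), and Plk3, at -0.67 (adjusted p = 0.0475). Zmat3 was also called without C57BL/6 irradiated replicate 2 (0.0306) or C57BL/6 sham replicate 2 (0.0409), and Trp53inp1 (0.028) and Plk3 (0.0355) without Balb/c irradiated replicate 1. In sham mice Ak1 (0.0297) and Ddit4 (0.031) were called without C57BL/6 sham replicate 1, and Dcxr (0.0439) without C57BL/6 sham replicate 3.

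Cdkn1a, the cyclin-dependent kinase inhibitor p21 and the most studied p53 target, gives a scale for these values. Its mean was 12.57 in Balb/c irradiated, 9.46 in Balb/c sham, 12.19 in C57BL/6 irradiated and 7.84 in C57BL/6 sham arrays. It rose by 3.12 ± 0.21 in Balb/c and 4.35 ± 0.21 in C57BL/6, more than any listed member in either strain by the brightest probe sets. It differed between sham groups by 1.61 ± 0.21 (Balb/c minus C57BL/6, adjusted p = 0.000486), while the difference of its irradiation effect, -1.23 ± 0.29, was not called (adjusted p = 0.279).

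**Figure D5:**
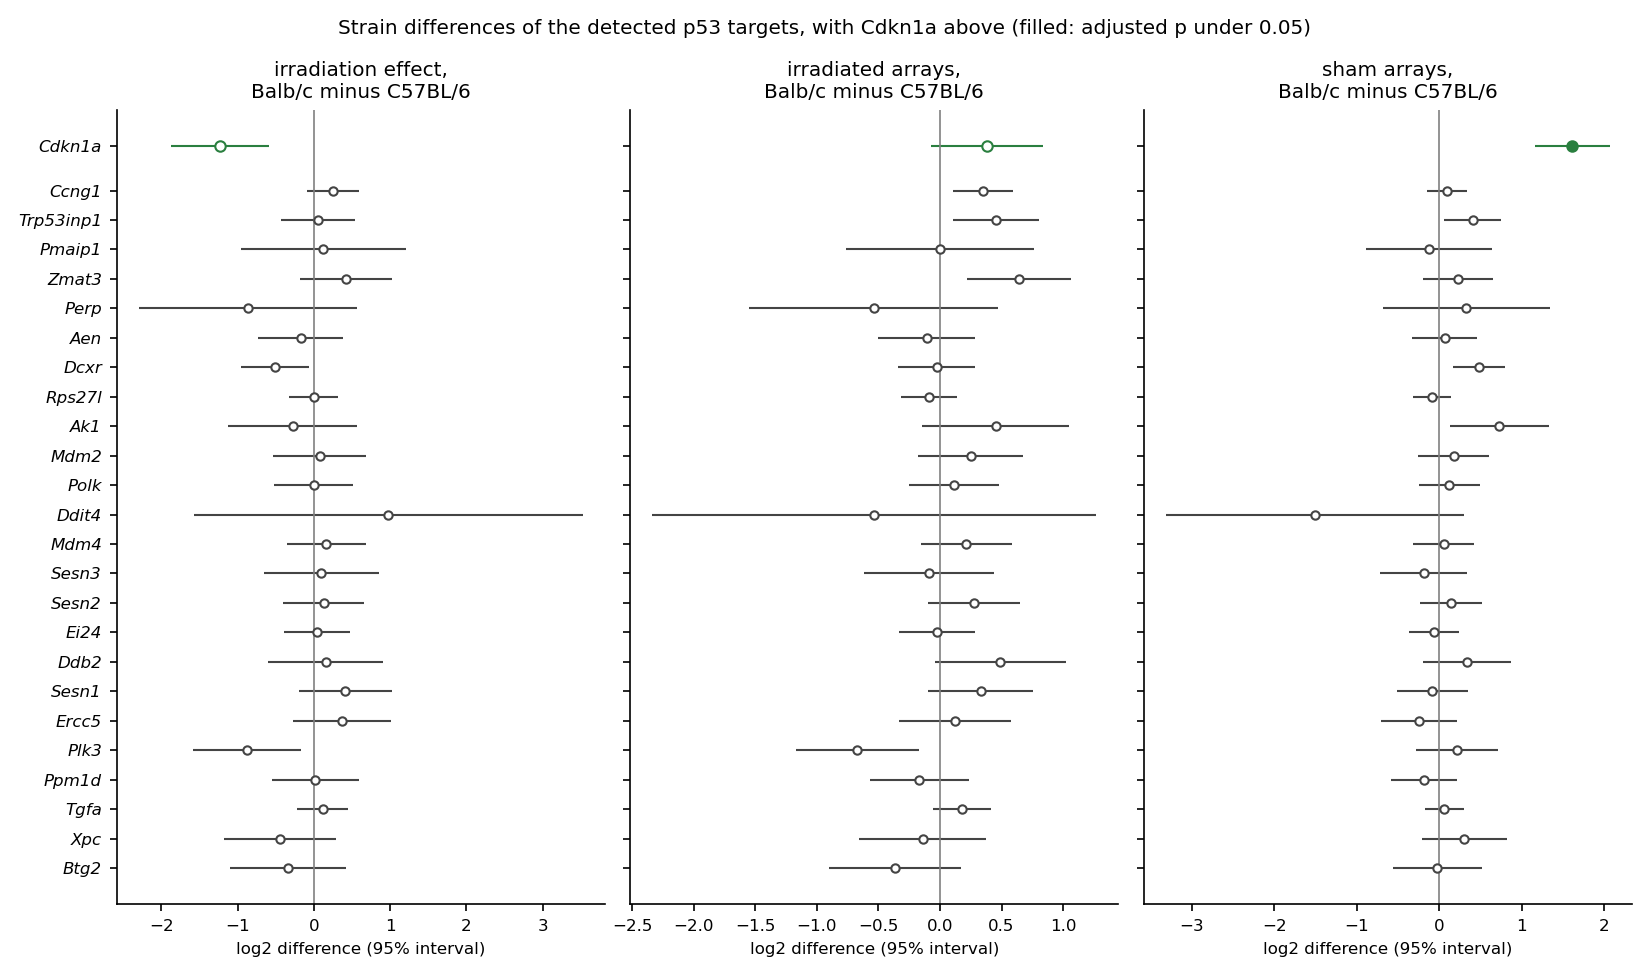
Balb/c minus C57BL/6 log2 differences with 95% intervals for the 24 detected members and Cdkn1a: the irradiation effect, irradiated arrays and sham arrays. All members have open points, and only Cdkn1a in sham arrays has a filled one.

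A second list held 32 further p53 targets, of which 30 had a probe set and 18 were detected; it too was written with earlier results of these data known and is no independent test. In Balb/c 4 were higher (22.2%, all tested genes 3.26%) and 0 lower, and in C57BL/6 3 were higher (16.7%, all tested genes 2.21%) and 1 was lower (5.56%, all tested genes 1.46%). In the average 5 were higher (27.8%, all tested genes 7.72%) and 2 lower (11.1%, near the 8.15% of all tested genes), with a median difference of 0.26. Ephx1, microsomal epoxide hydrolase, rose by 2.31 in Balb/c and 2.11 in C57BL/6, and Slc19a2, the thiamine transporter, by 1.90 and 1.66 in the same order. Dglucy, D-glutamate cyclase, rose by 1.35 in Balb/c and differed by 0.51 in C57BL/6 (adjusted p = 0.147). Pltp, phospholipid transfer protein, rose by 0.83 in Balb/c and differed by 0.57 in C57BL/6 (adjusted p = 0.0685).

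Of 25 upstream regulators of p53, 23 had a probe set and 20 were detected, and none was called in either strain. In the average 1 was called lower, which is 5% where 8.15% of all tested genes were. This was Crebbp, a histone acetyltransferase that modifies p53, which fell by 0.29 ± 0.09 (adjusted p = 0.0445). Its paralogue Ep300 differed by -0.23 (adjusted p = 0.063), the acetyltransferase gene Kat5 by -0.38 (adjusted p = 0.108) and Ppp1r13b, a p53-binding ASPP protein, by -0.32 (adjusted p = 0.114).

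Markers of other cell types also differed with irradiation, where 3.26% of all tested genes were called higher in Balb/c, 2.21% in C57BL/6 and 7.72% in the average. Of 9 monocyte markers, 4 were called higher in Balb/c (44.4%), 6 in C57BL/6 (66.7%) and 7 in the average (77.8%). Their array mean ran from 7.37 to 8.14 in Balb/c irradiated, against 6.57 to 7.0 in Balb/c sham, and from 7.93 to 8.75 in C57BL/6 irradiated, against 6.48 to 7.62 in C57BL/6 sham arrays. Of 10 border-associated macrophage markers, 3 were called higher in Balb/c (30%), 0 in C57BL/6 and 7 in the average (70%). Their array mean ran from 9.66 to 10.07 in Balb/c irradiated, against 9.03 to 9.22 in Balb/c sham, and from 10.37 to 10.64 in C57BL/6 irradiated, against 9.27 to 10.53 in C57BL/6 sham arrays. Of 9 astrocyte markers, 3 were called higher in Balb/c (33.3%), 0 in C57BL/6 and 6 in the average (66.7%), with array means from 10.31 to 11.12 in Balb/c irradiated, against 9.55 to 10.03 in Balb/c sham, and from 10.24 to 10.70 in C57BL/6 irradiated, against 9.56 to 10.04 in C57BL/6 sham arrays.

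Neutrophil markers, of which 4 of 9 were detected, had a median difference of 3.36 in Balb/c with 2 called higher (50%), and of 0.02 in C57BL/6 with 0 called. In the average 2 were called higher (50%). Of these 4 detected markers, Ngp and Camp were above 5 in only 4 arrays each, with means of 3.86 and 3.77. The array mean of all 9 neutrophil markers ran from 3.98 to 5.78 in Balb/c irradiated, against 3.08 to 3.27 in Balb/c sham arrays. In C57BL/6 it ran from 3.70 to 6.16 in irradiated, against 3.61 to 5.49 in sham arrays. Of the 9 measured endothelial and pericyte markers 6 were detected, such as Rgs5 with a mean of 12.01, and 3 of them were called higher in Balb/c (50%), 0 in C57BL/6 and 3 in the average (50%). The array mean of all 9 measured ran from 7.27 to 7.69 in Balb/c irradiated, against 6.53 to 7.12 in Balb/c sham arrays. In C57BL/6 it ran from 6.83 to 7.49 in irradiated, against 6.50 to 6.81 in sham arrays, while Pecam1 and Tie1 were at 2.23 in all arrays. Of 10 measured lymphocyte markers, Cd79b was above 5 in 10 arrays and Gzma in 8, and the other 8, with Cd3e, Cd3g and Cd79a at 2.23, in none. Neither was called in a strain alone. In the average Cd79b was called lower, at -0.54 (1 of 2 tested, 50%, against 8.15% of all tested genes). Gzma went the other way, at 2.46 in the average, and was not called. The array mean of the 10 ran from 2.55 to 3.09 in Balb/c irradiated, against 2.57 to 2.60 in Balb/c sham, and from 3.28 to 3.66 in C57BL/6 irradiated, against 3.12 to 3.24 in C57BL/6 sham arrays. Of the detected oligodendrocyte and neuron markers, 7 and 6 in number, none was called in either strain or in the average. Oligodendrocyte transcripts were bright all the same: Mbp had a mean of 15.19, above the brightest microglial marker, Csf1r, at 14.81. Mobp had a mean of 13.55 and Mag of 5.75, and Olig2 was above 5 in 0 arrays. The array mean of the oligodendrocyte markers ran from 8.88 to 9.36 in Balb/c irradiated, against 9.02 to 9.26 in Balb/c sham arrays. In C57BL/6 it ran from 8.82 to 9.46 in irradiated, against 9.12 to 9.38 in sham arrays. The part of these cells in the differences of the p53 targets was not tested.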

How the data were processed

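The table the authors deposited holds 45101 probe sets for each of 12 Affymetrix arrays as log2 values, for which the submitters' processing notes name GCRMA; its version is not given in the sources used here. Sorted values differed between arrays by at most 0.000336. After 2 rounds of linear amplification per the labels' protocols, depth is not defined, and the number of arrays limits the precision. Genes were named by the platform annotation where a probe set had 1 symbol (34945 probe sets, 932 had several and 9160 none apart from 64 controls), with 34741 symbols looked up through the Entrez identifier. Each gene took its probe set with the highest mean, and genes above 5 in at least 3 arrays were kept.

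Log2 values were fitted with limma 3.58.1 (lmFit and eBayes, R 4.3.3) as 4 group means, leaving 8 residual degrees of freedom, with Benjamini-Hochberg adjustment over every kept gene. The fit was tested on simulated data. All members and gene lists were chosen with earlier results of these data known. Values per array are given for members called in either strain or the average, the range of group means or the differences for the others, and up to 4 genes by smallest p from each other p53 list. Alternatives covered the filter, probe set choice, a floor, centring, quantile normalization, array weights, trend and robust options, RNA measures, the replicate block and leaving out each array. The 18S covariate was added after the data were seen. Same-numbered arrays correlated in their deviations from -0.048 to 0.447 over 18 pairs. All 3 correlations were over 0.1 only between the irradiated groups of the strains (0.217 to 0.447), and there the fit with the replicate block is given beside the result. For the other comparisons the numbers were not taken as pairs.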

Additional observations from a re-analysis of the deposited data

How the results depend on the processing

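The number of p53 targets called kept within 1.5 times the main count in most alternatives. With 18S signal as a covariate it was 3 in Balb/c, 5 in C57BL/6 and 6 in the average, against 9, 8 and 14, and with only the 2 groups compared in the fit it was 5 in C57BL/6. For Balb/c against C57BL/6 in sham mice it was 0, but 1 with the filter at 7 or with trend and robust options and 2 with array weights. In irradiated mice it was 0, but 2 with trend and robust options and 2 with the replicate block. In the fit with the replicate block 7 members were called in Balb/c, 9 in C57BL/6 and 14 in the average, and 0 for the interaction and for sham mice. Leaving out each array in turn gave 6 to 9 in Balb/c, 6 to 8 in C57BL/6, 12 to 14 in the average, 0 to 0 for the interaction, and 0 to 2 in sham and in irradiated mice. Over all tested genes, the 561 calls in Balb/c became 283 without the filter, 364 with only the groups compared, 104 with the 3′ and 5′ covariate and 39 with 18S. The 335 in C57BL/6 became 155 without the filter and 96 with only the groups compared, and the 1447 in the average became 867, 873 and 241 without the filter, with the 3′ and 5′ covariate and with 18S. The 7 interaction calls became 2 and 3 without the filter and with the 3′ and 5′ covariate, and the 818 in irradiated mice became 533 with only the groups compared and 336 with that covariate. The causes were not tested. The calls of Ccng1, Rps27l and Aen, in each strain and in the average, held in every alternative run.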

Other observations

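Of the 20 detected regulators of p53, 2 were called between the strains in sham mice (10%, against 10.5% of all tested genes), and they are named here after their values were seen. Chek2, a kinase that phosphorylates p53 after DNA breaks, had a mean of 9.36 in Balb/c sham against 7.44 in C57BL/6 sham arrays, a difference of 1.92 ± 0.24 (limma, adjusted p = 0.000461), and 9.12 in Balb/c irradiated against 7.75 in C57BL/6 irradiated arrays. Trp53bp2, an ASPP protein that binds p53, was lower in Balb/c sham arrays, at 7.21 against 8.14 (adjusted p = 0.0211). In irradiated arrays its means were 7.41 in Balb/c and 7.91 in C57BL/6, a difference that was not called (adjusted p = 0.21).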
